A study of Mus musculus with 8 samples.

Results

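Symbols of the form Gm followed by a number are provisional names for predicted mouse genes, and 224 such genes with good counts were followed in liver tumors 3 h after a dose of vesicle-borne imiquimod. They were selected on a measured level: every row of the deposited DESeq2-normalized table whose symbol is Gm plus digits and whose mean over the 8 tumors was at least 100 normalized counts. Of the 12985 Gm genes among the 36670 genes of that table, 224 met the rule. All 224 were also in the table of raw counts (55536 genes) and among the 15998 genes that passed the filter on low counts and were tested.

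The tumors were grown from HCA-1, a mouse hepatocellular carcinoma line, placed orthotopically under the liver capsule of male C3H mice that were 6 to 8 weeks old per the labels. On day 17 the IMQNP group (4 tumors, replicates 1 to 4) received a single intravenous dose of 4 mg per kg of PFSUV-IMQ, which is imiquimod, a small-molecule agonist of Toll-like receptor 7, carried in phospholipid-free small unilamellar vesicles. The Control group (4 tumors, replicates 1, 3, 4 and 5) received saline, so the vesicle and the drug cannot be told apart. Each library came from poly(A)-selected RNA of a whole tumor, a mixture of cancer cells of a single line and host cells, in which fewer cells of a type and less RNA per cell cannot be told apart.

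A Gm symbol says nothing about function. Some of these genes are ordinary protein-coding genes of fast-changing mouse families that were never given a family name, such as the immunity-related GTPases, interferon-induced proteins that attack the vacuoles of intracellular pathogens. Others are processed pseudogenes, copies of a parent mRNA that were written back into the genome without introns, and still others are noncoding transcripts defined by position, inside or antisense to a named gene. Reads from such a gene may therefore be shared with a parent of nearly the same sequence, or may belong to the transcript of an overlapping or adjacent gene. For this reason each value is set here beside that of the neighbor and of the parent.

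Total counts were between 16883911 and 27687756 in Control tumors and between 17008151 and 18527613 in IMQNP tumors, and the 224 genes held 0.494% to 0.89% of the counts of a tumor. All 20 genes of an interferon-stimulated reference list rose (log2 fold change 1.26 to 7.28). None of the 26 listed markers of hepatocytes and HCC, macrophages, T cells, B cells, neutrophils, endothelium, fibroblasts and erythroid cells was called. Of all tested genes 2.26% were called higher and 0.2% lower. A count of 0 of 26 is near these shares and does not show that cell content was the same. The summed CPM (counts per 1000000 counts) of each of these 8 lists overlapped between the groups, for example from 14.7 to 56 in Control to 27.4 to 125 in IMQNP tumors for neutrophil markers and from 1669 to 2487 to 2252 to 6167 for fibroblast markers. The list with the largest median shift was the erythroid one, Hba-a1 and Hbb-bs, at 101 to 273 CPM in Control and 45.9 to 108 CPM in IMQNP tumors (median log2 fold change -1.12). The part of these shifts in the results was not tested. The hepatocyte and HCC markers varied widely within each group, with sums of 4024 to 29298 CPM in Control and 5689 to 29853 CPM in IMQNP tumors. The tumor IMQNP replicate 2 stood apart with the lowest TMM factor (0.843) and the highest share of mitochondrial counts, 6.65% against 1.37% to 5.22% in the other tumors.

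Against Control, 17 of the 224 Gm genes rose in IMQNP tumors and 0 fell, where a call needed a Benjamini-Hochberg adjusted p under 0.05 over all 15998 genes in edgeR's quasi-likelihood test and a log2 fold change above 1 or below -1. The background rate of genes called higher was 2.26% of all tested genes and 2.41% of the 11372 tested genes that were not members but also had a mean of at least 100. The rate of genes called lower was 0.2%. Among the members 7.59% were called higher, but the rule averaged over treated tumors, and 8 of the 17 called genes had a Control mean under 100 and entered through their IMQNP values. These 8 were Gm6545, Gm7609, Gm5431, Gm44292, Gm5970, Gm11772, Gm48194 and Gm9574. Of the 194 members with a Control mean of at least 100, 9 (4.64%) were called. At an unadjusted p under 0.05, 31 members (13.8%) were higher and 5 (2.23%) were lower, beside 8.34% and 4.65% of all tested genes. DESeq2's Wald test called 23 members higher and 0 lower, beside 3.14% and 0.676% of the 19673 genes to which it gave an adjusted p. The entry of members through IMQNP values bears on these counts too. The median log2 fold change was 0.14 over the members and -0.03 over all tested genes.

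In all 17 called genes the lowest IMQNP tumor lay above the highest Control tumor. This held for 22 of the 224 members, against a background of 6.0% of all tested genes, and the converse, all IMQNP tumors below all Control tumors, held for 1 member (Gm6166) against a background of 3.28%. The entry of members through IMQNP values bears on both counts, and a call itself favors such separation. Among the 4 IMQNP tumors, replicate 2 was the highest in 15 of the 17 called genes and replicate 3 in the other 2. With each tumor left out in turn, 8 of the 17 genes kept their call throughout: Gm6548, Gm6545, Gm7609, Gm12250, Gm20559, Gm12185, Gm5970 and Gm8995. The call was lost in 7 of the 8 fits for Gm44292 and Gm9574, and in 6 for Gm4841, Gm48194, Gm12216 and Gm26917. It was lost in 3 for Gm11772 and in 1 for Gm5431 and Gm4951. The number called fell to 9 without Control replicate 1, to 10 without Control replicate 3 or IMQNP replicate 4, and to 11 without IMQNP replicate 2 or 3.

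**Figure D1:**
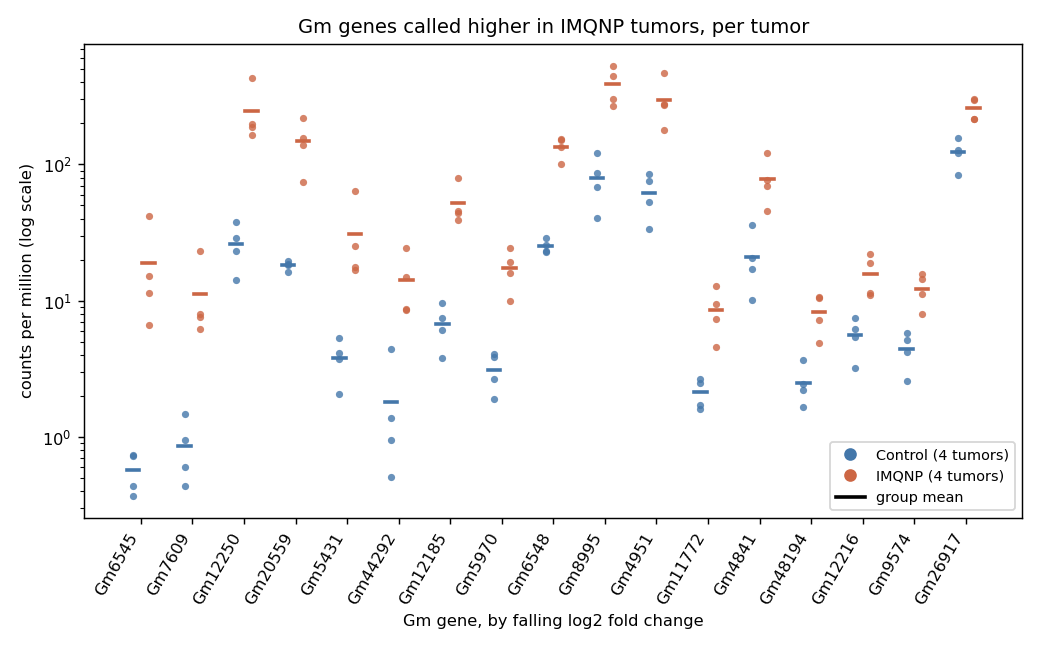
CPM (log axis) of the 17 Gm genes called higher, with a point for each of the 4 Control and 4 IMQNP tumors and a bar at each group mean. In every gene the 4 IMQNP points lie above the 4 Control points, and the highest point is IMQNP replicate 2 in 15 genes.

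**Figure D2:**
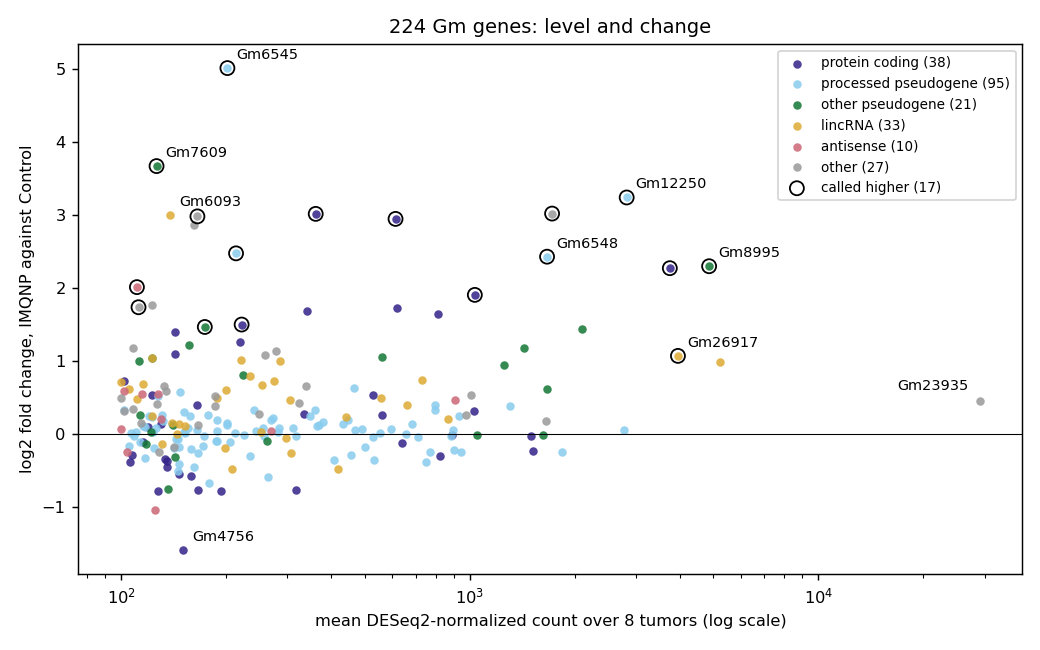
Mean normalized count over the 8 tumors (log axis) against the log2 fold change of IMQNP over Control for the 224 members, colored by annotation class, with a ring around the 17 called genes. No ring lies below 0, and the most abundant member, Gm23935, has a log2 fold change of 0.46.

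Gm6548 rose together with its neighbor Eif2ak2, while its sequence parent Eef1a1 did not pass the test. It is a processed pseudogene (ENSMUSG00000091549) on the minus strand of chromosome 17, chr17:78850792-78851956 in GRCm38, and its best sequence match is Eef1a1, the translation elongation factor that delivers aminoacyl-tRNA to the ribosome. Its 1163 aligned bases differed from the Eef1a1 transcript at 36 positions and by 3 gap bases (96.7% identity). Of its 50-base words, 12.8% were also in Eef1a1 and 24.1% in any other gene, so most reads of that length could be told from the parent. The window of 120 bases with the most differences, 10, is printed for both genes in transcript direction, with the differing bases in capitals. It was picked as the most divergent stretch, so other stretches separate the genes less. What a read needed to be assigned to Gm6548 is not known, since the treatment of reads that map to several places is not given.
Gm6548 (transcript bases 954 to 1073): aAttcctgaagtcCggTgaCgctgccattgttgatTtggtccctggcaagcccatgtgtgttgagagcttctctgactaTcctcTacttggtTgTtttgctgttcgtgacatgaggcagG
Eef1a1 (transcript bases 1295 to 1414): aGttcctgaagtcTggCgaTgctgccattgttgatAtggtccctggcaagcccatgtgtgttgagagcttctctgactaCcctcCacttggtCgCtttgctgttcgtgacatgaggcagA

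Gm6548 stood at 22.6, 23.2, 25.8 and 29.1 CPM in Control replicates 1, 3, 4 and 5 and at 100, 152, 155 and 134 CPM in IMQNP replicates 1 to 4. The groups did not overlap, and the Control tumors lay close together. The log2 fold change was 2.43 ± 0.19 (SE, n = 4 and 4; edgeR adjusted p = 0.000499). Eef1a1 did not follow: its mean was 14510 ± 3024 CPM (SD) in Control and 10613 ± 2503 CPM in IMQNP tumors, a log2 fold change of -0.45 ± 0.30 (edgeR adjusted p = 0.62). The other 3 members with Eef1a1 as parent, named after their values were seen, were not called either: Gm13456 and Gm5869 had log2 fold changes of -0.39 and -0.45 (edgeR adjusted p = 0.513 and 0.584), and Gm26384 had 0.38 (edgeR adjusted p = 0.626).

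The gene next to Gm6548 did rise. Eif2ak2, which encodes PKR, the interferon-induced kinase that halts translation on sensing double-stranded RNA, ends 608 bases upstream of Gm6548 on the same strand (chr17:78852564-78882573 in the GENCODE annotation), so that Gm6548 lies just past its 3′ end. RefSeq, on the same build, draws Eif2ak2 over chr17:78850504-78882572, which contains all of Gm6548, and its entry for Gm6548 (chr17:78850504-78852544) shares the end of that model. Eif2ak2 stood at 59.8, 50.2, 52.4 and 50.1 CPM in Control and at 199, 411, 346 and 326 CPM in IMQNP tumors. Its log2 fold change was 2.59 ± 0.23 (edgeR adjusted p = 0.000665), beside 2.43 for Gm6548. On the other side, Gpatch11 had a log2 fold change of -0.09 (edgeR adjusted p = 0.877).

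Per kilobase of exon, Gm6548 was 166% to 254% of Eif2ak2 in Control tumors and 162% to 221% in IMQNP tumors, so the ranges overlapped. The log2 ratio differed by -0.14 between groups (IMQNP minus Control). Against Eef1a1, Gm6548 per kilobase was 0.265% to 0.505% in Control and 1.55% to 4.03% in IMQNP tumors. That log2 ratio was 2.87 higher in IMQNP tumors. Both ratios are descriptions with no test, since Gm6548 was called for its rise in these tumors. Whether Gm6548 reads come from an extended Eif2ak2 transcript was not tested.

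**Figure D3:**
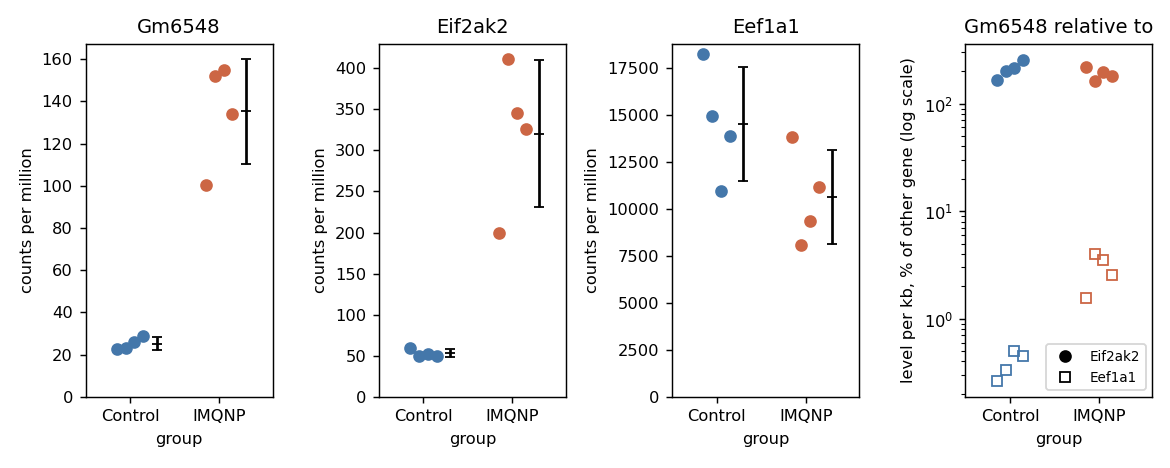
CPM of Gm6548, Eif2ak2 and Eef1a1 in each tumor (points, with mean and SD beside them) and, in the right-hand panel on a log axis, Gm6548 per kilobase as a percentage of Eif2ak2 (filled) and of Eef1a1 (open). The filled points span 162% to 254% in both groups together, while the open points are at or below 0.505% in Control and at or above 1.55% in IMQNP tumors.

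The same ratio was taken for each called gene to its neighbor (the tested gene that overlaps it most, otherwise the nearest tested gene without a Gm symbol) and to its parent where it had a parent, and the differences of log2 ratios given below are IMQNP minus Control. No ratio was tested: the genes were called for their rise, and 8 of the 17 entered through their IMQNP values, so a higher ratio to a gene that moved less follows from that choice. The parent was the gene sharing the most 50-base words with the member (at least 10%), otherwise the best blastn match over at least 50% of the transcript. The neighbor itself was called higher for 8 of the 17 genes. These include Gm4951 and Gm5970, which are called members and each other's neighbor, so they count each other. By nearest gene alone it was 7 of 17 (41.2%), beside 108 of 344 called genes that were not members (31.4%) and 6 of the 207 members that were not called (2.9%). Of the 7 called genes with a parent, 3 had a parent that was called higher. The 3 include Gm12185, whose parent Gm5431 is itself a called member. Among the 207 members that were not called, with or without a parent, 1 had a called parent. Over all tested genes 2.26% were called higher.

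**Figure D4:**
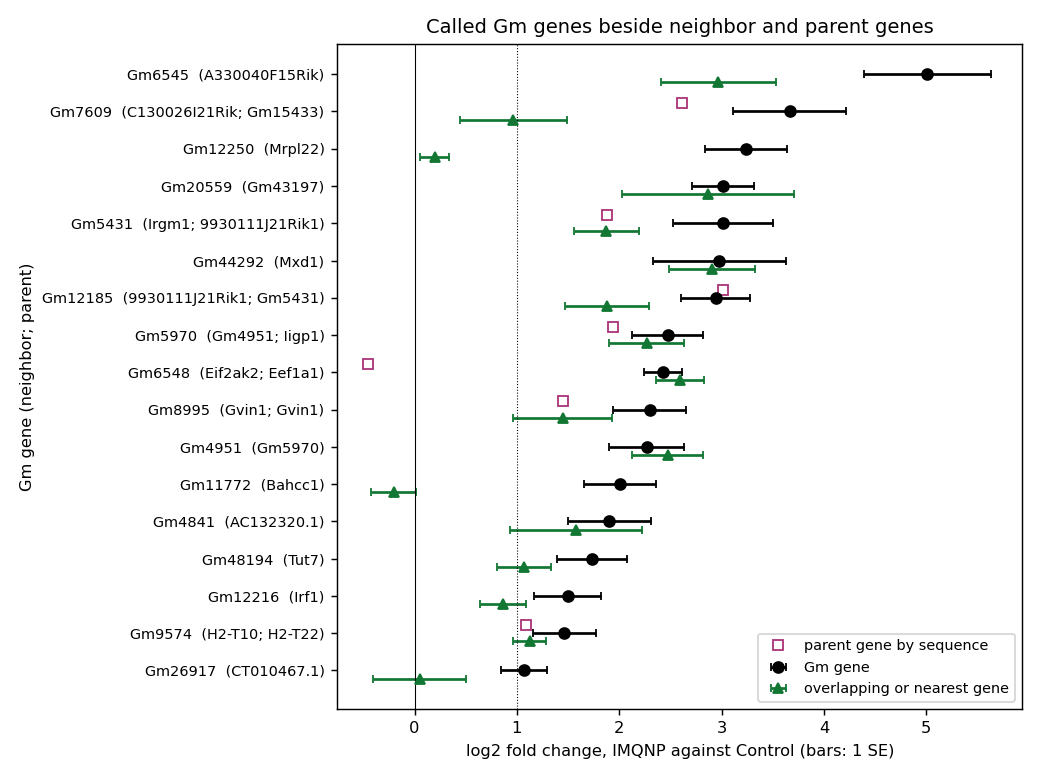
Log2 fold change (with 1 SE) of the 17 called Gm genes (circles), of the overlapping or nearest gene (triangles) and, as squares without error bars, of the parent gene, both named in brackets. The Gm6548 circle at 2.43 sits beside the Eif2ak2 triangle at 2.59 and far from the Eef1a1 square at -0.45, and the triangles of Gm12250, Gm11772 and Gm26917 lie between -0.20 and 0.20.

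The called genes described next are grouped by position alone, inside a named gene or with one on their flank at the distance given. Their hosts or neighbors were not all called, unlike that of Gm6548. Gm6545, a processed pseudogene at chr19:12528755-12530540, showed the highest fold change of all members. It was at 0.369 to 0.738 CPM in the 4 Control tumors and at 6.68, 41.8, 15.2 and 11.3 CPM in IMQNP replicates 1 to 4, so its Control level rested on few counts. The log2 fold change was 5.01 ± 0.62 (edgeR adjusted p = 0.00304). It lies within the noncoding gene A330040F15Rik on the same strand without exon overlap, and that host was itself called (log2 fold change 2.97 ± 0.56, edgeR adjusted p = 0.0243). Gm6545 is a member through its IMQNP values alone, and its log2 ratio to the host was 1.77 higher in IMQNP tumors.

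Gm44292 (chr6:86663188-86665551) lies inside Mxd1, a MYC-antagonist transcription factor, on the same strand and outside its exons. It was at 0.507, 0.949, 1.37 and 4.4 CPM in Control and at 8.55, 24.2, 14.9 and 8.71 CPM in IMQNP tumors (log2 fold change 2.98 ± 0.65, edgeR adjusted p = 0.0453). Mxd1 was at 20.8 to 25.4 CPM in Control and 100 to 359 CPM in IMQNP tumors, a log2 fold change of 2.91 ± 0.42. The log2 ratio of the 2 genes differed by 0.58, and its ranges in the groups overlapped. The call of Gm44292 was lost in 7 of the 8 fits with a tumor left out.

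Gm48194 (chr13:59781062-59781578), annotated as sense-intronic in Tut7, a terminal uridylyltransferase that tags RNAs for decay, went from 1.66 to 3.65 CPM in Control to 4.91 to 10.6 CPM in IMQNP tumors. Its log2 fold change was 1.73 ± 0.34 (edgeR adjusted p = 0.0286), against 1.07 ± 0.26 for Tut7, which missed the threshold (edgeR adjusted p = 0.0745). The log2 ratio differed by 0.67, with overlap. Gm48194 is a member through its IMQNP values alone.

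Gm11772, by contrast, is antisense to its host. It lies on the minus strand at chr11:120235234-120236122 within Bahcc1 and shares no exon base with it. Gm11772 was at 1.61, 1.72, 2.49 and 2.66 CPM in Control and at 4.58, 12.8, 7.31 and 9.54 CPM in IMQNP tumors (log2 fold change 2.01 ± 0.35, edgeR adjusted p = 0.0164). Bahcc1 had a log2 fold change of -0.20 ± 0.22 (edgeR adjusted p = 0.793), and the log2 ratio to it was 2.17 higher in IMQNP tumors. Gm11772 is a member through its IMQNP values alone. Whether the counting used strand is not given in the sources used here, so reads of the Bahcc1 intron could not be told from those of Gm11772.

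Gm20559 is a noncoding transcript of 6 exons at chr6:3333194-3346128. It had a narrow Control range of 16.2 to 19.7 CPM and reached 74.4, 219, 138 and 157 CPM in IMQNP replicates 1 to 4 (log2 fold change 3.02 ± 0.30, edgeR adjusted p = 0.00105). The nearest named gene, 26129 bases away on the same strand, is Samd9l, an interferon-induced antiviral factor, with a log2 fold change of 2.55 ± 0.40 (edgeR adjusted p = 0.0104). Gm43197, an unspliced model inside Gm20559, was higher by 2.86 on the log2 scale but was not called (edgeR adjusted p = 0.141), with 2.54 and 3.96 CPM in IMQNP replicates 1 and 3 and 29.3 and 19 in replicates 2 and 4.

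Gm12216 (chr11:53783418-53859256) lies 5044 bases from Irf1, a transcription factor of the interferon response, on the opposite strand. Gm12216 rose from 3.23 to 7.44 CPM in Control to 10.9 to 21.9 CPM in IMQNP tumors (log2 fold change 1.50 ± 0.32, edgeR adjusted p = 0.0443). Irf1 had a log2 fold change of 0.87 ± 0.23 and missed the threshold (edgeR adjusted p = 0.0939). Slc22a5, the carnitine transporter gene on the other side, had -0.24.

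Gm26917, a noncoding RNA of chromosome 17 (chr17:39843013-39846341), had the smallest called change, from 84.3 to 157 CPM in Control to 216 to 303 CPM in IMQNP tumors (log2 fold change 1.07 ± 0.22, edgeR adjusted p = 0.0387). Its neighbor 12 bases away is the ribosomal RNA gene model CT010467.1, which ranged from 1611 to 7100 CPM with a log2 fold change of 0.05. Ribosomal RNA is largely removed by poly(A) selection, and the amount left differed between tumors in both groups.

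Interferon-induced GTPase families gave most of the other called genes. All 5 immunity-related GTPase genes on the interferon list rose: Gm12250, Gm5431, Gm12185, Gm4951 and Gm4841, with log2 fold changes of 1.90 to 3.24. Summed over the 5 genes they were at 63.9 to 172 CPM in Control tumors and 477 to 1161 CPM in IMQNP tumors. The lack of overlap follows from the calls, since each of the 5 genes separated the groups. Gm5431 is a member through its IMQNP values alone. The whole list of interferon-related Gm genes had 13 symbols, of which 12 were counted and 11 tested, and 6 were called higher and 0 lower. Over all tested genes 2.26% were called higher, but the list was chosen with earlier results of these data known. The sixth was Gm6034, a class I MHC gene of under 1.5 CPM in every tumor (1.58 ± 0.33, edgeR adjusted p = 0.0397), which was too low to be a member and was called in 0 of the 8 fits that leave out a tumor.

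Gm12250 is listed in RefSeq as Irgb10, a protein-coding immunity-related GTPase that helps break open bacterial and vacuolar membranes, but as a processed pseudogene in the GENCODE annotation (chr11:58187739-58189012). It was at 28.7, 37.6, 23.1 and 14.3 CPM in Control and at 197, 428, 166 and 188 CPM in IMQNP tumors. The log2 fold change was 3.24 ± 0.40 (edgeR adjusted p = 0.00295), and no 50-base word of it occurred in another gene. The nearest gene, Mrpl22, a mitochondrial ribosomal protein gene 8174 bases away, had 0.20 ± 0.15, and the log2 ratio to it was 3.02 higher in IMQNP tumors. On its other side lie the related GTPase genes Igtp (2.44 ± 0.31, edgeR adjusted p = 0.00333) and Irgm2 (1.93 ± 0.35, edgeR adjusted p = 0.021).

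Gm5431 and Gm12185 are neighbors in a cluster on chromosome 11 (chr11:48887422-48902214 and chr11:48904656-48992226), listed in RefSeq as Irgb9b8 and Irgb2b1. Gm5431 was at 2.06 to 5.33 CPM in Control and at 16.9, 63.9, 17.6 and 25.1 CPM in IMQNP tumors (log2 fold change 3.01 ± 0.49, edgeR adjusted p = 0.0116). Gm12185 was at 3.80 to 9.56 CPM in Control and at 39, 80.1, 43.9 and 45.4 CPM in IMQNP tumors (log2 fold change 2.94 ± 0.34, edgeR adjusted p = 0.00221). Both had higher log2 fold changes than the paralog 9930111J21Rik1 (1.88 ± 0.41, edgeR adjusted p = 0.0466): the ratio to it was 1.06 higher for Gm5431 and 1.17 higher for Gm12185 on the log2 scale in IMQNP tumors. Other genes of the cluster were also called, namely Irgm1 (1.87), Tgtp1 (1.95), Psme2b (2.37) and Olfr56 (2.65). The GENCODE model of Gm12185 overlaps those of Tgtp1, Psme2b, Olfr56 and 9930111J21Rik1, the last without shared exon bases. RefSeq draws Gm12185 over chr11:48904656-48927182 only, which reaches none of them. Whether reads of these genes enter the Gm12185 value was not tested.

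Gm5431 shared 27.2% of its 50-base words with 9930111J21Rik1, and 2948 aligned bases differed at 114 positions. The most divergent window of 120 bases, with 17 differences in capitals, is shown because in other stretches reads of the 2 GTPases cannot be told apart.
Gm5431 (transcript bases 841 to 960): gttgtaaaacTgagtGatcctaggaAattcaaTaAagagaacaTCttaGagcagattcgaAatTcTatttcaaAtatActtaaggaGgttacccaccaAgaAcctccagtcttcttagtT
9930111J21Rik1 (transcript bases 831 to 950): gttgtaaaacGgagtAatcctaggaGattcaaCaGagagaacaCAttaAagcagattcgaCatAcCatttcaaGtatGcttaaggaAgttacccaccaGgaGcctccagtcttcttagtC

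On chromosome 18, Gm4951 (chr18:60212080-60247820) was at 52.9, 85.2, 75.9 and 33.6 CPM in Control and at 178, 466, 273 and 276 CPM in IMQNP tumors (log2 fold change 2.27 ± 0.36, edgeR adjusted p = 0.011). Gm5970, a processed pseudogene that lies inside Gm4951 on the same strand without exon overlap, rose alongside it, from 1.90 to 4.04 CPM to 9.93 to 24.5 CPM (2.47 ± 0.34, edgeR adjusted p = 0.00516). Per kilobase Gm5970 was 10.4% to 12.5% of Gm4951 in Control and 11.5% to 15.3% in IMQNP tumors. Gm5970 is a member through its IMQNP values alone. Its sequence parent was Iigp1, another GTPase of that cluster, at 88.2% identity, whose log2 fold change of 1.94 ± 0.47 missed the threshold (edgeR adjusted p = 0.0724). Gm4841, in the same cluster, went from 10.1 to 35.7 CPM in Control to 45.4 to 122 CPM in IMQNP tumors (1.90 ± 0.41, edgeR adjusted p = 0.0416) and kept it in 2 of the 8 fits that leave out a tumor.

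The very large interferon-inducible GTPases, or GVINs, gave a called pseudogene and an uncalled parent. Gm8995 (chr7:106504239-106511671), among the members the third by normalized count (not corrected for length), was at 85.8, 122, 68.3 and 40.4 CPM in Control and at 268, 532, 303 and 449 CPM in IMQNP tumors. Its log2 fold change was 2.30 ± 0.36 (edgeR adjusted p = 0.00972). Gvin1, with 91.9% identity over the aligned part, was at 3.78 ± 2.36 CPM (SD) in Control and 10.4 ± 3.98 CPM in IMQNP tumors (1.45 ± 0.49, edgeR adjusted p = 0.214). The log2 ratio of Gm8995 to Gvin1 differed by 0.73, with overlap between the groups. Gm4070, which shares 95% of its words with Gvin1, had 1.63 ± 0.44 (edgeR adjusted p = 0.103), and Gm4759 had 0.99 ± 0.53 (edgeR adjusted p = 0.506).

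Gm7609 and Gm9574 completed the called genes. Gm7609 (chr1:85199613-85213786), a pseudogene in GENCODE and protein coding in RefSeq, was at 0.599, 1.48, 0.945 and 0.434 CPM in Control and at 6.18, 23.2, 7.64 and 7.99 CPM in IMQNP tumors (3.67 ± 0.55, edgeR adjusted p = 0.00783). It shared 22.5% of its words with Gm15433 (2.61 ± 0.59, edgeR adjusted p = 0.0543) and lies inside C130026I21Rik on the opposite strand (0.97 ± 0.52, edgeR adjusted p = 0.512). Gm7609 is also a member through its IMQNP values alone. Its log2 ratio to this host was 2.64 higher in IMQNP tumors, and that to Gm15433 differed by 0.64, with overlap. Gm9574, named here after its values were seen because it fell outside the limit of 15 named genes, is a class I MHC-like pseudogene (1.46 ± 0.31, edgeR adjusted p = 0.0396). It stood near H2-T10 (1.12 ± 0.16) and its sequence parent H2-T22 (1.09 ± 0.21), both of them called, and the log2 ratios to them differed by 0.34 and 0.39, with overlap.

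Promoter windows of RefSeq (GRCm38.p6, 250 bases before to 50 after a gene's start) existed for 39 of the 224 members and 7 of the 17 called genes. They were searched on both strands for GAAANNGAAA, the core of the interferon-stimulated response element, which 3.44% of all 32851 windows held. It was in 3 of the 7 windows of called Gm genes (Gm12250, Gm12185 and Gm12216) and in 2 of the 32 windows of members that were not called. The windows of Gm7609, Gm20559, Gm5431 and Gm11772 did not hold these letters. Among all called genes 29.1% of 265 windows held it. The 3 windows and that of Eif2ak2, the neighbor of Gm6548, are shown in transcript direction with each match in capitals.
Gm12250 (chr11:58183593-58183892, plus strand): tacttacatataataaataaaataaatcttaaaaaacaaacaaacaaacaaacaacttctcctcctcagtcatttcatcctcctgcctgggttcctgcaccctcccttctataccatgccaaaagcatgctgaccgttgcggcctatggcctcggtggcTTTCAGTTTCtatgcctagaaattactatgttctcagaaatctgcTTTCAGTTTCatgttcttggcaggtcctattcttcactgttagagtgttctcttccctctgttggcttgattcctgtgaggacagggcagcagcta
Gm12185 (chr11:48927133-48927432, minus strand): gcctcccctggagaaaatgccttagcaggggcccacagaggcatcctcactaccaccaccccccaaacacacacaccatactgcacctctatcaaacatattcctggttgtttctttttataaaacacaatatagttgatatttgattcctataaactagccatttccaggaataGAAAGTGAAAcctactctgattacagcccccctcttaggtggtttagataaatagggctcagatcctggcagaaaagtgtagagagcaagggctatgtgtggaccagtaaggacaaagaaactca
Gm12216 (chr11:53859207-53859506, minus strand): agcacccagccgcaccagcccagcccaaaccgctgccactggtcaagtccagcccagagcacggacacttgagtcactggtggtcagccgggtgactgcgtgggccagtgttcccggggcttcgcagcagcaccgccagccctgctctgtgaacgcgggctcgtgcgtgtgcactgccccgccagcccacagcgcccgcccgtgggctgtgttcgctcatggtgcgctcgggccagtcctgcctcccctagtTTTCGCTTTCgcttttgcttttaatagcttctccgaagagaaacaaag
Eif2ak2 (chr17:78882523-78882822, minus strand): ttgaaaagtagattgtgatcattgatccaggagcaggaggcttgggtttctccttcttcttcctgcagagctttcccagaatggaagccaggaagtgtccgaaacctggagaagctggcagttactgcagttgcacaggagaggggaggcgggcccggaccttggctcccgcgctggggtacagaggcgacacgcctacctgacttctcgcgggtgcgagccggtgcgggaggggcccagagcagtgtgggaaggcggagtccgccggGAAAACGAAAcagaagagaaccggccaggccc

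Counted from 0 at the RefSeq start, the 2 matches of Gm12250 began at positions -91 and -46, that of Gm12185 at -75, that of Gm12216 at 2 and that of Eif2ak2 at 18. These are matches of letters, not measured binding.

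By annotation class, 4 of 95 processed pseudogenes, 3 of 21 other pseudogenes, 5 of 38 protein-coding genes, 1 of 33 lincRNAs, 1 of 10 antisense genes and 3 of 27 other models were called higher. The share over all tested genes was 2.26%, and the entry of members through IMQNP values bears on these counts too. The median log2 fold change was 0.04 for processed pseudogenes and 0.11 for protein-coding genes. Parents were found for 147 members, 136 of them by shared words. Among the 91 processed pseudogenes with a parent by words, 87 had a log2 fold change within 0.5 of the parent's. Both sides lay near 0, with medians of 0.04 for these members and -0.14 for their parents. Unrelated genes near 0 would also lie this close, so the count does not show that copies follow their parents. The largest gap, 2.88, was that of Gm6548 to Eef1a1.

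None of the 44 members with a ribosomal protein parent was called, and their log2 fold changes ran from -0.26 to 0.62. Of all tested genes 2.26% were called higher, so 0 of 44 is near that share. Examples are Gm15772, a copy of Rpl26 (131 ± 40.8 CPM in Control and 136 ± 27.3 in IMQNP tumors, log2 fold change 0.05 against -0.23 for Rpl26), and Gm10020, a copy of Rpl15 (-0.25 against -0.23). Their shared words were 74.3% and 82.9%, so many reads of copy and parent cannot be told apart. Of the 78 members with another parent by words, 3 were called and 74 lay within 0.5 of the parent. Their medians and those of the parents, -0.01 and -0.03, were also near 0, so this closeness too does not show that they follow their parents.

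**Figure D5:**
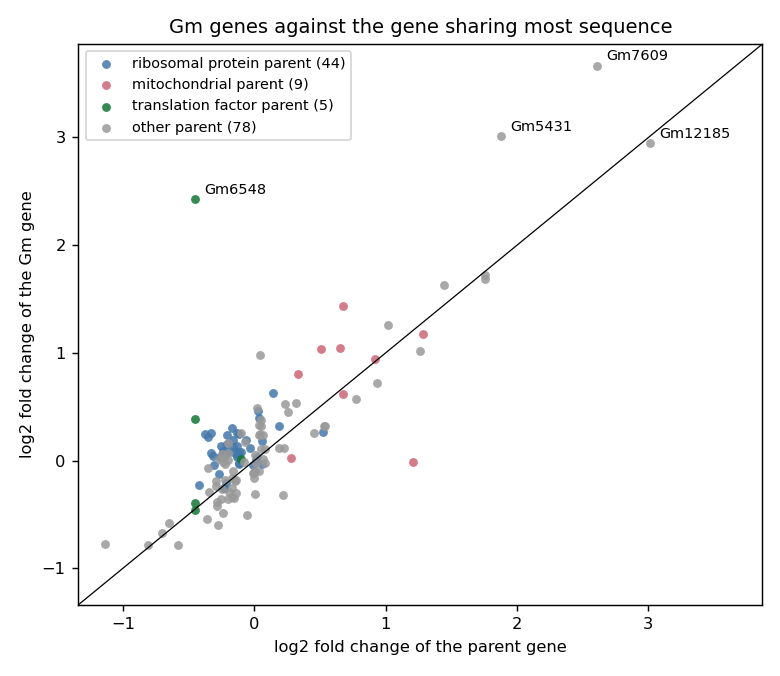
Log2 fold change of the parent gene against that of the member for the 136 members with a parent by shared words, with the line of equality. Gm6548, at -0.45 on the horizontal and 2.43 on the vertical axis, lies farthest above the line, and the 44 copies of ribosomal protein genes lie near it between -0.26 and 0.62.

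The 9 members copied from mitochondrial DNA had a median log2 fold change of 0.95 beside 0.68 for their mitochondrial parents, and none was called. With 2.26% of all tested genes called higher, 0 of 9 is near that share. Gm28661 matched mt-Co2 at all 681 of its bases. The first 120 bases, the same in both, are shown because a read of them cannot be assigned to either gene.
Gm28661 (transcript bases 1 to 120): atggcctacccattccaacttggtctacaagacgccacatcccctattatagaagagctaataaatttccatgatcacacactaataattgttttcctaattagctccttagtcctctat
Gm28661 was at 17.8, 90, 34.3 and 22.4 CPM in Control and at 31.5, 75.2, 112 and 98.8 CPM in IMQNP tumors, with overlap. mt-Co2, of nearly the same length (684 bases), was at 28.2 to 70.6 CPM in Control and 35.6 to 116 CPM in IMQNP tumors. Gm29216 copies 492 bases of mt-Co1 (1545 bases), which was at 4875 to 32484 CPM over the 8 tumors. Gm29216 ranged from 16 to 144 CPM in Control and from 63.7 to 278 CPM in IMQNP tumors (1.44 ± 0.70, edgeR adjusted p = 0.447). The share of mitochondrial counts was highest in IMQNP replicate 2, which also held the highest Gm29216 value, and its part in these values was not tested.

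Of the 10 members with the highest mean normalized count, a mean that includes the treated tumors, 5 were called: Gm8995, Gm26917, Gm4951, Gm12250 and Gm20559. The other 5 were Gm23935, Gm42047, Gm15772, Gm29216 and Gm10020. Over all tested genes 2.26% were called higher. A rise in IMQNP tumors itself lifts the mean that ranks these 10, so the count does not show that abundant members respond more. Gm23935, annotated as a miRNA of 57 bases inside Zc3h7a on the opposite strand, had a mean of 29017 normalized counts. It was at 797 to 1518 CPM in Control and 1061 to 2538 CPM in IMQNP tumors (log2 fold change 0.46 ± 0.32, edgeR adjusted p = 0.647), and all of its words were also in Gm24270 (0.26 ± 0.36). Gm42047, a lincRNA, was at 131 to 191 CPM in Control and at 185, 346, 409 and 398 CPM in IMQNP tumors (0.98 ± 0.26, edgeR adjusted p = 0.106), beside -0.02 for its neighbor Klhdc4. Without IMQNP replicate 1 it was called (1.18, edgeR adjusted p = 0.0171), and DESeq2 gave 0.98 with an adjusted p of 0.0192, a fold change just under the limit.

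Several members with large but uncalled differences were chosen after their values were seen. Gm6093, a lincRNA, was at 1.03 to 2.66 CPM in Control and at 2.65, 32.8, 6.91 and 4.58 CPM in IMQNP tumors (2.99 ± 0.79, edgeR adjusted p = 0.0986). Gm10800 and Gm21738, which both share words with Gm26870, varied together over the tumors. Gm10800 was at 2.26, 3.41, 5.11 and 45 CPM in Control and at 40.8, 4.4, 118 and 20.1 CPM in IMQNP tumors (1.73 ± 1.11, edgeR adjusted p = 0.606). Gm21738 was at 2.03, 2.46, 3.65 and 23.5 CPM in Control and at 24.1, 3.14, 62.4 and 11 CPM in IMQNP tumors (1.68 ± 0.99, edgeR adjusted p = 0.558). Control replicate 5 and IMQNP replicates 1, 3 and 4 were high in both, and the groups overlapped. Gm4756 had the lowest log2 fold change of all members, -1.59 ± 0.92 (edgeR adjusted p = 0.546), with 30.8 CPM in Control replicate 4 against 1.19 to 8.08 in the other Control tumors. Gm14305 and Gm14325, zinc finger genes of chromosome 2, had log2 fold changes of -0.79 and -0.78 (edgeR adjusted p = 0.315 and 0.348). Gm14305 was at 9.45, 9.73, 7.13 and 4.62 CPM in Control and at 3.86, 5.17, 3.01 and 5.9 CPM in IMQNP tumors, so that Control replicate 5 lay among the IMQNP tumors.

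At the limit of the rule, Gm42679 and Gm17201 were just inside with mean normalized counts of 100.23 and 100.16, and Gm42725 and Gm8189 were just outside with 99.86 and 99.77. None of the 4 was called, and their log2 fold changes were 0.49, 0.07, 0.61 and 0.32.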

How the data were processed

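RNA was sequenced from 8 whole tumors (4 Control, 4 IMQNP). The deposited files hold raw read counts per Ensembl gene and, made by the authors with DESeq2, normalized counts of unit signal with gene symbols. The submitters' processing notes list Trimmomatic 0.38, HISAT2 2.1.0 and featureCounts 2.0.0, whereas the methods of the study name TopHat 2.0.12 and HTSeq 0.6.1. The treatment of reads that map to several places, which sets the counts of pseudogenes, is not given in the sources used here, nor is strand. The methods give an age of 4 to 6 weeks.

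Members were taken from the normalized values, and all tests used the counts as deposited. edgeR 4.0.16 (R 4.3.3; TMM, filterByExpr, glmQLFit, glmQLFTest) was fitted to all 8 tumors, and the SE of a log2 fold change is its size divided by the square root of F. CPM values use TMM-scaled library sizes. DESeq2 1.42.0 was an alternative. Total counts of 16883911 to 27687756 per tumor put 3 counts, the limit that a count of 0 allows, at 0.105 to 0.21 CPM. Classes, neighbors and 50-base words came from GENCODE M21 (GRCm38) and blastn 2.17.0, the pairwise windows from Biopython 1.88, promoters from RefSeq. Ratios were taken per kilobase of exon with 0.5 added to each count. The requirement of 10% shared words for a parent, with the blastn match otherwise, and the exclusion of genes that overlap an exon of the member were set after the data were seen. Named genes were Gm6548, called members (up to 15 in each direction), the 10 of highest mean, those next to the threshold of 100 and the interferon-related Gm list, with their neighbors and parents; exceptions are marked. The members and lists were chosen with earlier results of these data known. Nothing says that tumors of a group were handled in separate batches, and p-values measure the spread between these tumors.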

Additional observations from a re-analysis of the deposited data

Results flagged for a closer look

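In 7 of 64 groups of 4 tumors (32 named genes, 2 groups each) a single tumor lay far from the others by Dixon's ratio, which chance alone does in about 1 group in 20. Of these, 3 were in IMQNP replicate 2: Gm7609 was at 23.2 CPM there against 6.18 to 7.99 in the other IMQNP tumors, Gm12250 at 428 against 166 to 197, and Gm12185 at 80.1 against 39 to 45.4. All 3 genes were called in the fit without that tumor. Gm29216 was at 144 CPM in Control replicate 3 against 16 to 33.9 in the other Control tumors. Gm42725 was at 8.36 CPM in Control replicate 5 against 1.93 to 2.95. In IMQNP replicate 1, Gm8909 was at 2.37 CPM against 1.33 to 1.43, and Gm6034 was the low one at 1.21 against 1.45 to 1.49.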

How the results depend on the processing

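The number of members called higher was 17 with DESeq2 size factors and with size factors of the authors' table (an alternative chosen after seeing the data), 14 with upper-quartile scaling, 20 without the filter, 15 with at least 10 counts in every tumor and 23 with DESeq2's Wald test, where 2 members had no adjusted p. It ranged from 9 to 18 with each tumor left out. Over all genes, those at an adjusted p under 0.05, whatever the fold change, numbered 429 in the main fit. They numbered 399 with upper-quartile scaling, 574 without the filter, 377 with at least 10 counts in every tumor and 911 with DESeq2's Wald test. With a tumor left out they numbered from 214 to 429. With membership set by the mean over the Control tumors alone, also chosen after seeing the data, 9 of 205 were called higher and 1 lower. A mean of at least 50 gave 23 higher and 1 lower of 436, and one of at least 200 gave 12 higher of 112. These sets were read from the main fit, where 2.26% of all tested genes were called higher and 0.2% lower. The labels do not say whether the replicate numbers pair the tumors. The correlation of deviations was 0.29, -0.27 and -0.32 for numbers 1, 3 and 4. For tumors of different numbers it ran from -0.64 to 0.68, so these values cannot decide whether the tumors were paired. With the replicate block, in which Control replicate 5 and IMQNP replicate 2 have no partner and add nothing, 24 members were called higher, the 17 among them, and 5 lower. Over all genes that fit had 821 at an adjusted p under 0.05, beside 429 in the main fit, so more calls were not particular to the members. Upper-quartile scaling ended the calls of Gm44292, Gm12216 and Gm26917, and the cause was not tested. Gm42047 was called without IMQNP replicate 1, Gm4070 was called without the filter and by DESeq2, and the low Gm6034 was not called with upper-quartile scaling, without the filter or with the block. Of 136 fits of a called gene with a tumor left out, 93 kept the call. The 17 called genes kept their direction in every alternative that gave a value. Gm6545 and Gm7609 had no value with at least 10 counts in every tumor. Log2 fold changes near 0 changed sign: Gm15772 to -0.021 with upper-quartile scaling, and from -0.12 to 0.25 with each tumor left out; Gm17201 to -0.0018 with upper-quartile scaling, and from -0.28 to 0.397 with each tumor left out; and Gm10020 to 0.015 with the replicate block. Genes under about 1 CPM in Control rest on few counts, and depth cannot separate copies that share their sequence.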

Other observations

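There were 6 members that were not called but whose nearest named gene was called higher. Gm43980 (1.77, edgeR adjusted p = 0.26) lies in Tra2a (1.62, edgeR adjusted p = 0.02) on the opposite strand, and Gm4952 (-0.77, edgeR adjusted p = 0.777) lies 3408 bases from A330040F15Rik (2.97), the host of Gm6545. Gm11427 is a member whose parent by blastn, Slfn4, an interferon-induced Schlafen gene, had a log2 fold change of 5.13 at 92% identity, while Gm11427 itself had 1.21 (edgeR adjusted p = 0.316). It is the single member that was not called but has a called parent. These genes were picked after their values were seen.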
